A study of Mus musculus with 21 samples.

Results

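The oligoadenylate synthetase (OAS) family was examined in skin and inguinal lymph nodes of mice that overexpress interferon kappa in the epidermis. The members were the genes named Oas1a, Oas1b, Oas1c, Oas1g, Oas2, Oas3, Oasl1 and Oasl2 in both deposited tables, that is 8 of 55491 listed genes. All 8 were found in both tables. In skin all 8 passed the filter on low counts and were tested among 19101 genes. In nodes 7 passed and were tested among 16173 genes, and Oas1g stayed below the filter with 0 to 15 counts per library.

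OAS enzymes are interferon-induced proteins that bind double-stranded RNA and then join ATP into short 2′-5′ linked oligoadenylates. These oligoadenylates act as short-lived messengers of the antiviral response inside the cell. The mouse carries several Oas1 copies where humans carry a single gene. Oas1a and Oas1g are active synthetases, Oas2 and Oas3 are built from repeated OAS units, and the OAS-like genes Oasl1 and Oasl2 carry ubiquitin-like domains. In skin, type I interferon and OAS genes are widely used as readouts of cutaneous lupus.

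The study bred Ifnk TG mice, in which the keratin 14 promoter drives Ifnk in basal keratinocytes. The line was made in C57Bl/6 mice and backcrossed to BALB/c, and BALB/c WT mice were the controls. Skin came from 12-month animals without UV treatment and comprised 3 WT libraries, 2 non-lesional (NL) Ifnk TG libraries and 4 lesional (L) Ifnk TG libraries. Node cells came from mice whose age is not given in the sources used here and comprised 3 libraries in each of 4 groups, WT or Ifnk TG without treatment (NoTx) and WT or Ifnk TG after UVB. The UVB schedule was 250 mJ/cm2 at 310 nm on 3 days a week for 2 weeks, with a further 2 weeks of observation. The labels do not say whether NL and L libraries came from the same animals. They give neither the sex of any mouse nor the body site of the skin. They tell no batches apart among the 21 libraries, but the library names of skin and nodes begin with different numbers. Where nothing states that libraries came from separate animals, the p-values measure only the spread between these libraries.

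Total counts ran from 40499078 to 56511276 per skin library and from 27599809 to 36428435 per node library. The transgene's own gene Ifnk was at 14, 11, 5 and 8 counts in L replicates 4 to 7, at 6 and 0 counts in NL replicates 2 and 3, and at 0 in all 3 WT skin libraries and all 12 node libraries. A count of 0 allows up to 3 counts per library, so the separation of Ifnk TG from WT by this row rests on few reads. Summed levels of 5 keratinocyte markers were 8260 to 23954 CPM (counts scaled to a common library size) in skin and 1.23 to 2.45 CPM in nodes, where 5 B cell markers summed to 1049 to 2020 CPM and 5 T cell markers to 1476 to 1907 CPM. The 4 hair shaft keratins found were at 885 to 3310 CPM in L skin and 0.0989 to 0.883 CPM in NL and WT skin, and the 5 skeletal muscle markers were at 18.3 to 5557 CPM in L skin against 19038 to 27570 CPM in the other skin libraries. Tissue makeup therefore moved with the lesional label, and its part in the Oas values was not tested. In the paper, lesional skin was taken wherever lesions occurred, and non-lesional skin from the back and from areas matching the lesions. Body site may therefore differ between the groups, and its part was not tested either. In bulk RNA, fewer cells of a type and less RNA per cell cannot be told apart.

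All members lie on chromosome 5 in GRCm38. Oas1a, Oas1b, Oas1c, Oas1g, Oas2 and Oas3 share the interval chr5:120730333-120907521, and Oasl1 and Oasl2 share chr5:114896936-114937915, with 5792417 bases between them. GENCODE annotates Oas1b as a polymorphic pseudogene, since many laboratory strains carry a truncated allele, and the other 7 members as protein-coding. The promoter table of RefSeq for GRCm38.p6 matched 6 of the 8 members by symbol, all except Oas1b and Oas2. Each 300-base window, from 250 bases before to 50 bases after the start, was searched on both strands for GAAANNGAAA, the core of the interferon-stimulated response element, and its reverse complement TTTCNNTTTC. Matches were found for Oas1a, Oas1g, Oas1c and Oas3 and not in the windows of Oasl1 and Oasl2, and 3.44% of 32851 promoters of the same length held a match. The near-identical Oas1a and Oas1g promoters belong to members called in lesional skin. Oas3 and Oas1c were not called there in edgeR, and the called member Oas2 had no window to search. The sequences below are those with a match. They run 5′ to 3′ on the gene's strand from 120 to 3 bases before the start, with the matches in capitals.
Oas1a, chr5:120907528-120907645, minus strand: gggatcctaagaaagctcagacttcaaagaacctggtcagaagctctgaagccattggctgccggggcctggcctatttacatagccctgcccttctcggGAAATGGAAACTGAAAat
Oas1g, chr5:120887616-120887733, minus strand: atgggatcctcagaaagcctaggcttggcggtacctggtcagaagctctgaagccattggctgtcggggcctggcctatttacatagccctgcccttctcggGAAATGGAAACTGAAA
Oas3, chr5:120777662-120777779, minus strand: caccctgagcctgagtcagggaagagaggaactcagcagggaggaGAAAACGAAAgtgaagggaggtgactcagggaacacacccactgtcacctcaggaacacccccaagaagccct
Oas1c, chr5:120812517-120812634, minus strand: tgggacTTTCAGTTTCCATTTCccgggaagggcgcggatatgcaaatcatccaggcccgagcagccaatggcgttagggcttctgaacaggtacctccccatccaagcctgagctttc
The overlapping pair of matches ended 5 bases before the start in Oas1a and 3 bases before it in Oas1g. At a shift of 2 bases, 108 of the 118 Oas1a bases (91.5%) were identical to Oas1g. The Oas3 match lay 75 to 66 bases before the start. In Oas1c both matches were on the other strand, 114 to 99 bases before the start. Oas1b is annotated in the opposite direction with 120 bases between its start and that of Oas1c, so the Oas1c matches lie on the strand of Oas1b and next to its start. A match is a description of letters and was not tested as a binding site.

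The first comparison asked which synthetases differ between lesional transgenic skin and WT skin. Oas1a, Oas1g and Oas2 were higher in L skin, by 3.26-fold, 5.48-fold and 4.32-fold in the edgeR fit. These are 3 of the 8 members, and in the same comparison 43.1% of all tested genes were called in either direction, so the share of members called was near the background. The median log2 difference was 1.50 over the members and 0.06 over all tested genes. Values for all 8 genes are in the plot of skin CPM by library.

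**Figure D1:**
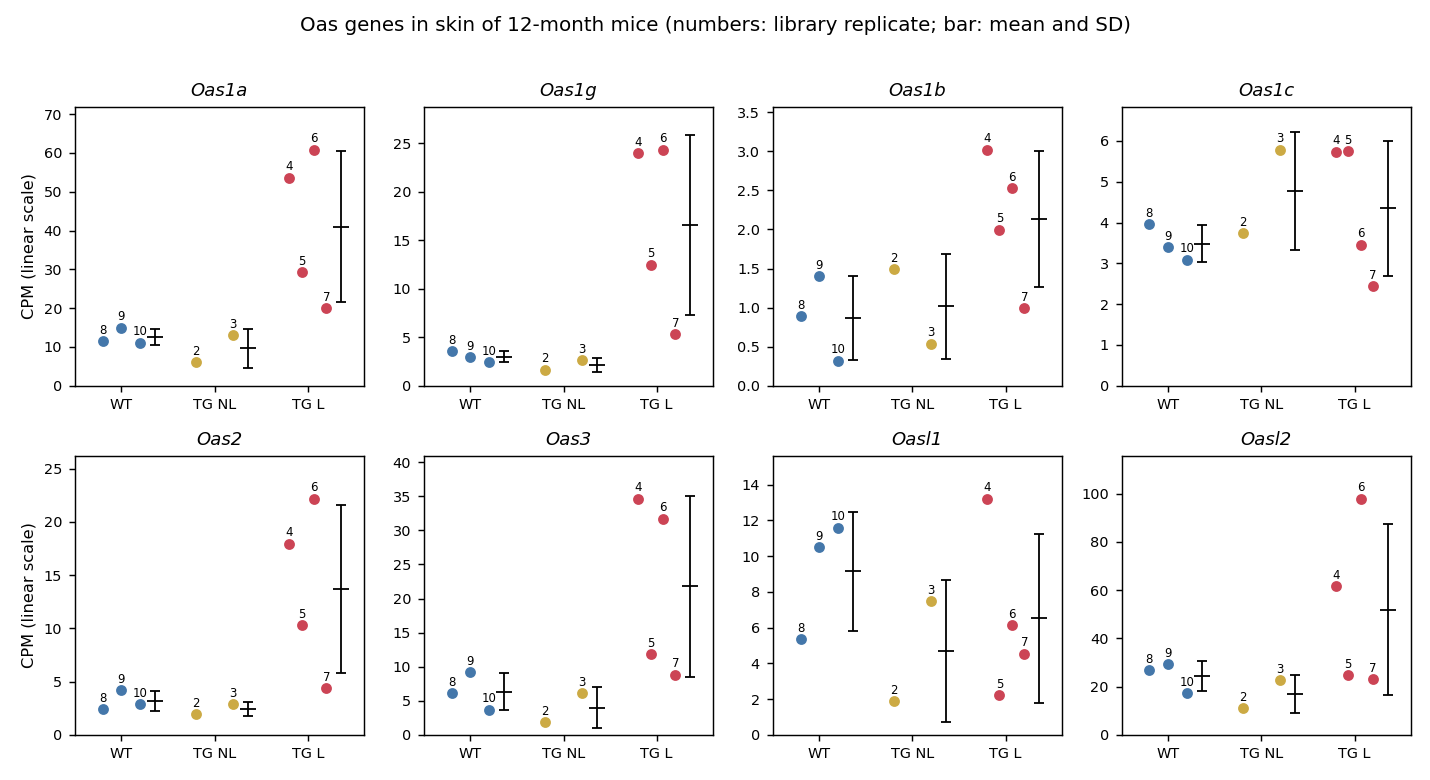
CPM (vertical axes, linear) of the 8 Oas genes in 3 WT, 2 TG NL and 4 TG L skin libraries; each point is a library with its replicate number, and the black bar is the mean with SD. L replicates 4 and 6 are the upper pair of the 4 L libraries for every gene except Oas1c, and for Oasl1 the L points overlap those of WT and NL.

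Oas1a, an active synthetase, was at 11.6, 15.0 and 11.1 CPM in WT replicates 8, 9 and 10, at 6.14 and 13.1 CPM in NL replicates 2 and 3, and at 53.6, 29.4, 60.9 and 20.0 CPM in L replicates 4 to 7. All 4 L libraries lay above all 5 others, and replicates 4 and 6 were the high ones. The log2 difference of L from WT was 1.71 (SE 0.43, adjusted p = 0.0137, edgeR's quasi-likelihood test with Benjamini-Hochberg adjustment). Oas1g, its neighbouring copy, was at 3.60, 2.97 and 2.47 CPM in WT, 1.66 and 2.65 CPM in NL, and 24.0, 12.5, 24.4 and 5.33 CPM in L. The L values again did not overlap those of WT or NL, and replicate 7 was the lowest of them. The difference was 2.45 (SE 0.52, adjusted p = 0.00627 in edgeR). Oas2, which makes longer oligoadenylates, was at 2.44, 4.18 and 2.89 CPM in WT, 1.93 and 2.87 CPM in NL, and 18.0, 10.3, 22.2 and 4.38 CPM in L. L replicate 7 cleared WT replicate 9 by only a small margin. The difference was 2.11 (SE 0.53, adjusted p = 0.0128 in edgeR). All L values lay above all WT values for these 3 members and for 26.0% of all tested genes.

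Oas1a and Oas1g are close copies, so their counts are uncertain where reads fit both. Of the 151-base words in Oas1a transcripts 32.3% also occur in Oas1g, and 24.0% of those of Oas1g occur in Oas1a, while no other pair of members shared such a word. With both genes summed into a single row the L to WT difference was 1.88 (adjusted p = 0.0108, edgeR). The calls of Oas1a and Oas2 also depended on single WT libraries. Without WT replicate 8 the adjusted p was 0.0503 for Oas1a and 0.0508 for Oas2, leaving 1 member called, and without WT replicate 10 it was 0.0521 for Oas1a, leaving 2.

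Oas3, the member that responds best to long double-stranded RNA, was at 6.11, 9.19 and 3.71 CPM in WT, 1.87 and 6.11 CPM in NL, and 34.7, 11.9, 31.7 and 8.83 CPM in L. Its lowest L library, replicate 7, lay just under WT replicate 9. The log2 difference of 1.78 (SE 0.63, adjusted p = 0.0519, edgeR) missed the threshold, whereas DESeq2 gave an adjusted p of 0.005. Oasl2 was at 26.7, 29.3 and 17.3 CPM in WT and at 61.6, 24.7, 97.9 and 23.1 CPM in L, with 11.2 and 22.6 CPM in NL. L replicates 4 and 6 stood above WT and replicates 5 and 7 within it, and the difference of 1.08 had a 95% interval from -0.19 to 2.36. Oas1b was at 0.321 to 1.40 CPM in WT, at 1.49 and 0.54 CPM in NL and at 0.991 to 3.02 CPM in L, a difference of 1.29 with an interval from -0.04 to 2.62.

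For Oas1c and Oasl1 the L values spread on both sides of the WT values. Oas1c, for which no synthetase activity is known, was at 3.97, 3.40 and 3.09 CPM in WT, 3.75 and 5.79 CPM in NL, and 5.74, 5.75, 3.46 and 2.45 CPM in L. Its groups overlapped, and the L to WT difference was 0.32 with a 95% interval from -0.43 to 1.06. Oasl1, which is known to restrain translation of the interferon regulator Irf7, was at 5.34, 10.5 and 11.6 CPM in WT, 1.89 and 7.51 CPM in NL, and 13.2, 2.24, 6.13 and 4.54 CPM in L. L replicate 4 was the highest of all 9 and L replicate 5 among the lowest. The difference was -0.48 with an interval from -1.95 to 0.98, which leaves changes of either sign possible.

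Against NL skin of the same line the same 3 members were called in L skin. Oas1a, Oas1g and Oas2 were higher by 2.09 (SE 0.52, adjusted p = 0.0214), 2.94 (SE 0.63, adjusted p = 0.0127) and 2.51 (SE 0.64, adjusted p = 0.0231) on the log2 scale in edgeR. In this comparison 3 of 8 members and 25.0% of all tested genes were called. It shares the L libraries with the comparison against WT and is not a separate source of evidence. All L values lay above both NL values for 5 members, which were Oas1a, Oas1g, Oas2, Oas3 and Oasl2, and for 24.7% of tested genes. Oas3 differed by 2.45 (adjusted p = 0.0515) and Oasl2 by 1.62 (adjusted p = 0.108) in edgeR, while DESeq2 put both past the threshold with adjusted p of 0.000693 and 0.0168. With only 2 NL libraries the count was fragile, and without either NL replicate 2 or NL replicate 3 no member was called in edgeR. The background moved too, from 4782 called genes to 1470 without NL replicate 2 and 1182 without NL replicate 3.

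**Figure D2:**
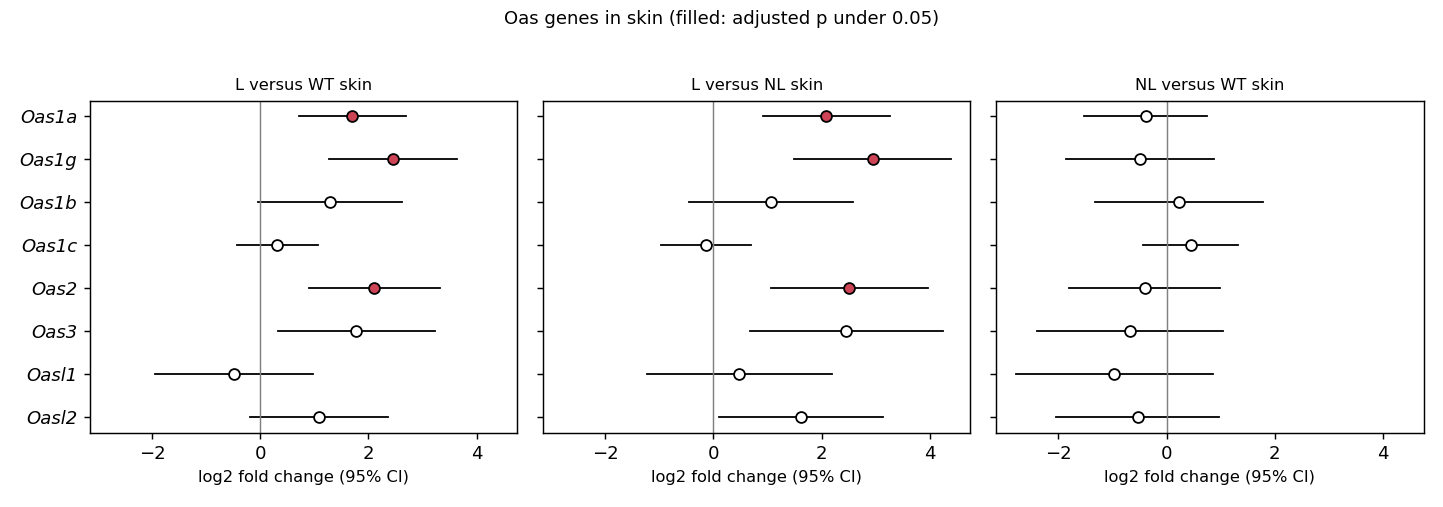
Log2 fold change (horizontal axis) with its 95% confidence interval for the 8 Oas genes in L versus WT, L versus NL and NL versus WT skin; filled points have an adjusted p under 0.05 in edgeR. Oas1a, Oas1g and Oas2 are filled in the L comparisons, and every interval in NL versus WT spans 0.

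NL transgenic skin was then compared with WT skin, which asks whether the transgene alters these genes outside lesions. No member passed the test in edgeR, and none had an unadjusted p under 0.05. Over all tested genes 0% passed, with 1465 at an unadjusted p under 0.05, and DESeq2 called 62 genes, none of them a member. Of the 8 members 6 were lower in NL, with log2 differences from -0.97 for Oasl1 to 0.45 for Oas1c and a median of -0.45. None of the 8 was free of overlap between the groups, against 35.0% of tested genes in either direction. The intervals were wide, as for Oas1a with -1.53 to 0.76, and NL replicate 2 was the lowest of all 9 skin libraries for Oas1a, Oas1g, Oas2, Oas3, Oasl1 and Oasl2.

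Within L skin the same libraries were high for most members. Replicates 4 and 6 held the top values for 7 members, Oas1c being the exception, and the summed level of all 8 was 214, 98.7, 249 and 69.6 CPM in replicates 4 to 7. It was 52.5 to 75.9 CPM in WT and 30.0 and 61.1 CPM in NL, so L replicate 7 lay inside the WT range for the sum. Neutrophil markers in the same L libraries were at 572, 141, 75.6 and 63.3 CPM against 10.2 to 20.0 CPM in WT and NL, an order that differs from that of the Oas genes. Ifng, the type II interferon, was at 117, 34, 203 and 5 counts in L replicates 4 to 7, which is the order of Oas1a, Oas1g, Oas2 and Oasl2. T cell markers were at 44.6, 53.5, 55.5 and 23.6 CPM there, and at 25.5 to 42.0 CPM in WT and NL. Keratinocyte markers were at 23954, 17335, 19566 and 8260 CPM in L replicates 4 to 7, which is the order of Oas1b and Oas3. In WT and NL they were at 9346 to 18401 CPM. Macrophage and monocyte markers were at 303, 157, 349 and 204 CPM in these L libraries, and at 204 to 456 CPM in WT and NL. The part of any of these in the spread was not tested.

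Each member was also set against the mean z-score of the other tested members over the 9 skin libraries. These libraries span the WT, NL and L groups, whose tissue makeup differed, so the correlations include differences between groups. The Pearson correlation was 0.90 to 0.97 for Oas1a, Oas1g, Oas2, Oas3 and Oasl2, 0.63 for Oas1b, 0.25 for Oas1c and 0.20 for Oasl1. The non-member genes most like the members were Rtp4 (0.97), Isg15 (0.96), Ifi44, Rbm3-ps and Xaf1 (0.95 each).

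The rest of the OAS pathway was measured from a list of 7 genes, of which 5 could be tested in skin. The median log2 difference of L from WT skin was 0.58 over these 5. Of them 3 were called higher and none lower, against 43.1% of all tested genes called in either direction. The clearest was Oas1e, a family copy that lies between Oas3 and Oas1c. It was at 7, 22 and 20 counts in WT replicates 8 to 10, at 68 and 26 in NL replicates 2 and 3, and at 290, 216, 205 and 146 in L replicates 4 to 7. Its log2 difference was 3.50 between L and WT (SE 0.50, adjusted p = 0.000908) and 2.18 between L and NL (adjusted p = 0.0192), both in edgeR. The call against NL was lost without NL replicate 2 (adjusted p = 0.0607) or NL replicate 3 (adjusted p = 0.152). The L libraries lay above all others, and its difference was not tested against those of the members. Pde12, a phosphodiesterase that breaks down 2′-5′ oligoadenylates, rose from 33.4 ± 5.04 CPM in WT (SD, n = 3) to 65.1 ± 6.76 CPM in L (SD, n = 4). Abce1, a ribosome recycling factor, rose from 88.1 ± 4.97 to 132 ± 31.9 CPM, a call lost in edgeR on leaving out any 1 of the 3 WT libraries (adjusted p of 0.0514 to 0.0745). Oas1f, another copy in the interval whose function is not well described, had 1653 to 6739 counts per skin library and an L to WT difference of 0.21 (adjusted p = 0.696), and Oas1d and Oas1h had 0 to 3 counts.

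Genes that sense RNA or carry interferon signals gave mixed counts in L against WT skin, where 43.1% of all tested genes were called in either direction. Of 8 double-stranded RNA sensors, Adar was higher (0.62) and Mavs, the adaptor of the RIG-I pathway, was lower (-0.66). Among the interferon signalling genes reported here Stat2 (1.02), Irf9 (0.91) and the feedback inhibitor Socs1 (1.83) rose, and Jak1 fell (-0.72). Stat2 and Irf9 are parts of the factor that binds the response element searched above. Of 10 interferon-stimulated reference genes Isg15 (2.51) and Rtp4 (1.39) rose and the other 8 did not pass the test, with a median of 0.89 over the list. Ifng was called among the ligands (adjusted p = 0.0356 in edgeR), as was Ifnk (adjusted p = 0.0191), and Ifnb1, Ifnl2 and Ifnl3 had 0 to 6 counts. In WT skin Ifng had 0 to 5 counts and Ifnk had 0, so both genes passed the filter on low counts only through TG libraries. L replicate 7, with 5 Ifng counts, lay within the WT range. In edgeR the calls of Ifng, Stat2 and Rtp4 were lost on leaving out L replicate 4, L replicate 6 or any 1 WT library, with adjusted p up to 0.121, those of Adar without L replicate 4, WT replicate 9 or WT replicate 10 (up to 0.0991) and those of Irf9 without WT replicate 9 or WT replicate 10 (up to 0.063).

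Other genes near the members were called in both directions in L against WT skin, where 43.1% of all tested genes were called. A shared effect of the region was not tested. Of 33 tested genes within 1 Mb of the Oas1, Oas2 and Oas3 interval, 6 were higher and 10 lower in L than in WT skin, with a median of -0.26. Of 43 near Oasl1 and Oasl2, 17 were higher and 10 lower, with a median of 0.12.

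In lymph nodes the question was whether UVB and the transgene alter the same genes away from the skin. No member passed the test in any of the comparisons. The libraries within a group differed widely, as the plot of node CPM by library shows. Summed over the 8 members the level was 79.4, 229 and 138 CPM in WT NoTx replicates 1 to 3, 53.9, 56.8 and 48.7 CPM in Ifnk TG NoTx replicates 4 to 6, 59.4, 70.3 and 139 CPM in WT UVB replicates 7 to 9, and 82.3, 254 and 129 CPM in Ifnk TG UVB replicates 10 to 12. The untreated TG nodes were low and close to each other, and the highest libraries were TG UVB replicate 11 and WT NoTx replicate 2.

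**Figure D3:**
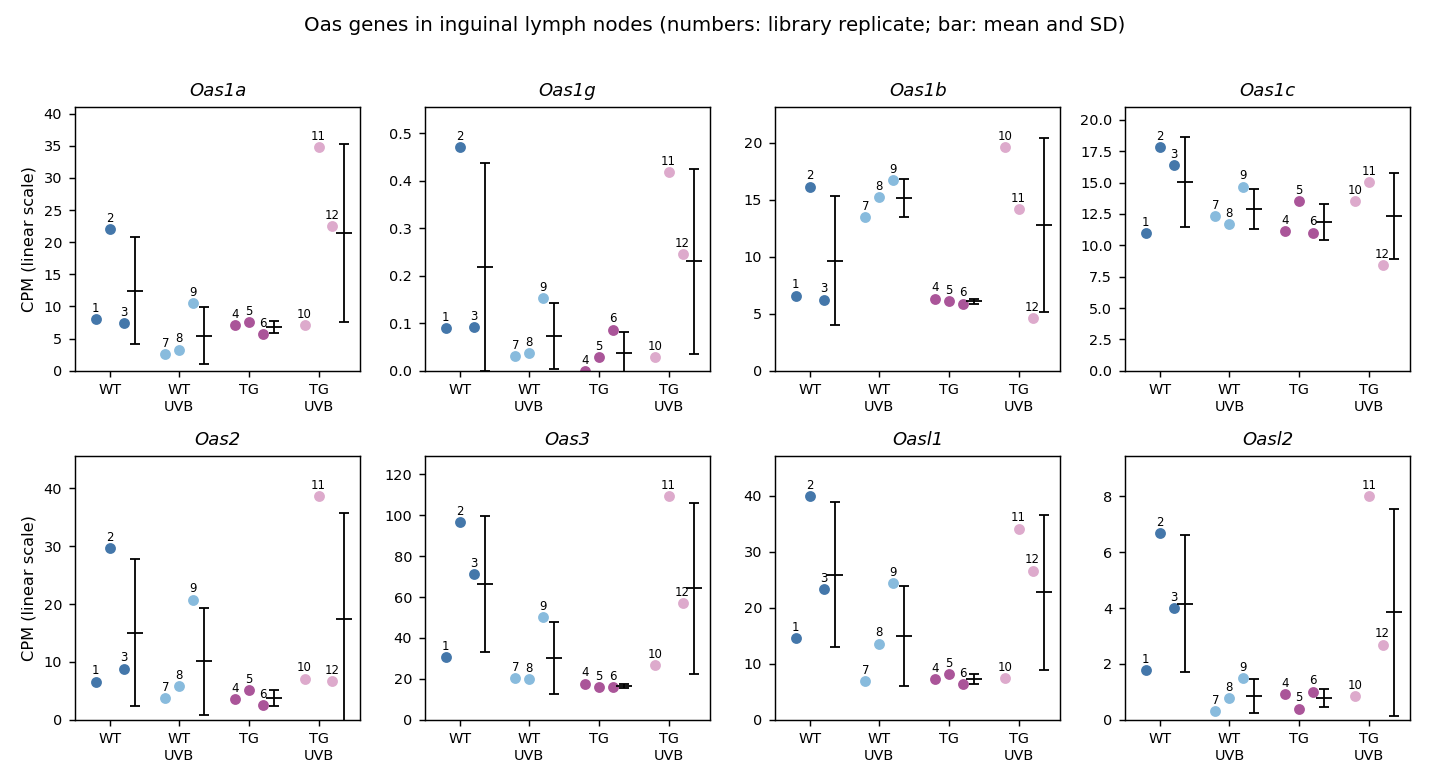
CPM (vertical axes, linear) of the 8 Oas genes in 3 node libraries in each of 4 groups; each point is a library with its replicate number, and the black bar is the mean with SD. TG UVB replicate 11 and WT NoTx replicate 2 are the high libraries for Oas2, Oas3, Oasl1 and Oasl2, and Oas1g is near 0 in all 12.

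Oas3 was at 30.8, 96.7 and 71.3 CPM in WT NoTx, 20.2, 20.0 and 50.3 CPM in WT UVB, 17.6, 15.9 and 16.0 CPM in TG NoTx, and 26.6, 109 and 57.2 CPM in TG UVB. All 3 untreated TG libraries lay below every library of the other groups. The WT UVB libraries overlapped those of WT NoTx. Oasl2 was at 1.78, 6.68 and 3.99 CPM in WT NoTx, 0.300, 0.763 and 1.50 CPM in WT UVB, 0.919, 0.397 and 1.01 CPM in TG NoTx, and 0.843, 8.00 and 2.69 CPM in TG UVB. WT libraries were therefore lower after UVB without overlap, while in TG the irradiated replicate 10 lay within the untreated range. Oasl1 was at 14.5, 39.9 and 23.3 CPM in WT NoTx, 6.88, 13.6 and 24.4 CPM in WT UVB, 7.22, 8.14 and 6.43 CPM in TG NoTx, and 7.39, 34.1 and 26.6 CPM in TG UVB. Its untreated TG libraries lay below all untreated WT libraries.

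Oas1a was at 8.03, 22.0 and 7.37 CPM in WT NoTx, 2.55, 3.27 and 10.5 CPM in WT UVB, 7.11, 7.55 and 5.71 CPM in TG NoTx, and 7.12, 34.8 and 22.5 CPM in TG UVB. TG UVB replicate 10 stayed at the untreated level and the other two did not. Oas2 was at 6.61, 29.7 and 8.84 CPM in WT NoTx, 3.72, 5.78 and 20.8 CPM in WT UVB, 3.57, 5.16 and 2.56 CPM in TG NoTx, and 7.12, 38.6 and 6.70 CPM in TG UVB. In WT NoTx, WT UVB and TG UVB a single library stood well above the other two. Oas1b followed another order, at 6.58, 16.2 and 6.23 CPM in WT NoTx, 13.5, 15.2 and 16.7 CPM in WT UVB, 6.32, 6.13 and 5.88 CPM in TG NoTx, and 19.6, 14.2 and 4.59 CPM in TG UVB. Oas1c varied least, from 8.44 to 17.8 CPM over all 12 libraries.

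After UVB in WT nodes 6 of 7 members were lower and Oas1b higher, with a median log2 difference of -0.79. No member was called, against 4.98% of all tested genes, and Oasl2 was the only member with an unadjusted p under 0.05 and the only one whose groups did not overlap, a pattern that 17.3% of tested genes shared in the same direction. Its difference was -2.27 with a 95% interval from -4.09 to -0.45 (adjusted p = 0.12, edgeR). The background of 805 called genes fell to between 0 and 493 whichever of the 6 libraries was left out, the lowest counts being 0 without WT UVB replicate 8, 7 without WT NoTx replicate 3 and 29 without WT UVB replicate 9. After UVB in TG nodes all 7 were higher, with a median of 1.66 and differences of 2.30 (SE 0.82) for Oasl2, 2.21 (SE 0.97) for Oas2, 1.96 (SE 0.61) for Oas3, 1.66 (SE 0.70) for Oas1a and 1.64 (SE 0.62) for Oasl1. These 5 had an unadjusted p under 0.05, as had 1507 of all tested genes, but the smallest adjusted p was 0.392 in edgeR. In this comparison 0% of genes were called in edgeR, while DESeq2 called 134 genes and no member, and edgeR called 236 genes and no member without TG UVB replicate 12. Oas2 and Oas3 did not overlap between the groups, against 6.23% of tested genes.

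Without UVB all 7 members were lower in TG than in WT nodes, with a median of -1.83. Oas2, Oas3, Oasl1 and Oasl2 did not overlap between the genotypes, which held in that direction for 4.93% of tested genes. The differences were -2.41 (SE 0.83) for Oasl2, -2.00 (SE 0.61) for Oas3, -2.00 (SE 0.96) for Oas2 and -1.83 (SE 0.62) for Oasl1. Of these Oas3, Oasl1 and Oasl2 had an unadjusted p under 0.05, as had 549 of all tested genes, and the adjusted p was 1 for every member in edgeR. With 0% of genes called in edgeR, and 2 genes and no member in DESeq2, the table gives no call for any of them. Erythroid markers were at 169 to 199 CPM in untreated TG nodes, 83.5 to 175 CPM in untreated WT nodes, 17.4 to 109 CPM in TG nodes after UVB and 6.80 to 27.8 CPM in WT nodes after UVB, and their part in the Oas values was not tested.

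After UVB 5 of 7 members were higher in TG than in WT nodes, with a median of 0.78. Oas1a (1.97, SE 0.71) and Oasl2 (2.16, SE 0.82) had an unadjusted p under 0.05, as had 1131 of all tested genes, and the smallest adjusted p was 0.678 in edgeR. The groups overlapped for all 7, against 9.71% of tested genes that did not overlap in either direction, and 0% were called in edgeR against 21 genes and no member in DESeq2. The UVB and genotype comparisons share libraries, so their values are not independent of each other.

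**Figure D4:**
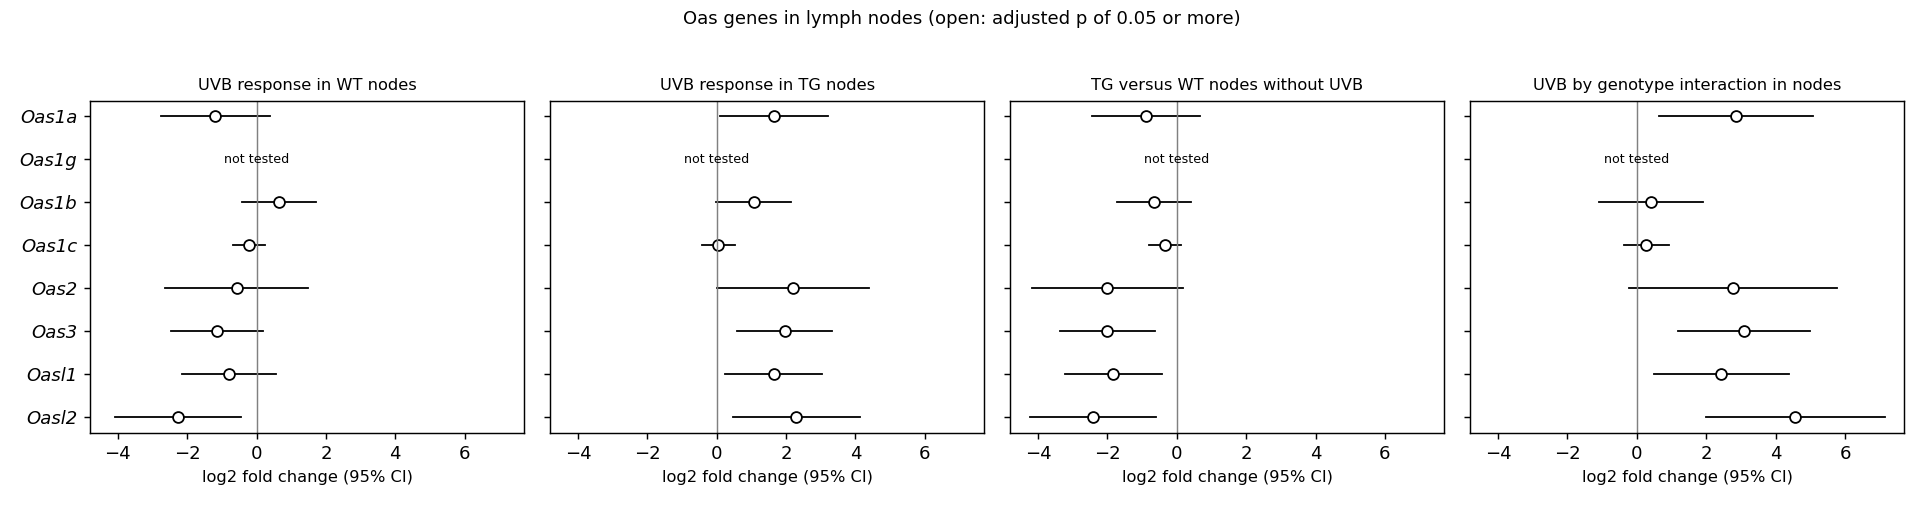
Log2 fold change (horizontal axis) with its 95% confidence interval for the Oas genes in 4 node comparisons; open points have an adjusted p of 0.05 or more in edgeR, and Oas1g was not tested. Points lie mostly left of 0 for UVB in WT and for TG without UVB, and right of 0 for UVB in TG and for the interaction.

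The interaction, which asks whether the UVB response differs between genotypes, was positive for all 7 members with a median of 2.78. It was 4.57 (95% interval 2.00 to 7.15) for Oasl2, 3.10 (1.19 to 5.00) for Oas3, 2.85 (0.63 to 5.07) for Oas1a and 2.43 (0.49 to 4.37) for Oasl1, which had an unadjusted p under 0.05 as had 881 of all tested genes. The adjusted p was 0.848 for these 4 in edgeR, with 0% of genes called, and DESeq2 called 5 genes and no member. Averaged over genotypes, UVB gave no called member against 8.61% of tested genes, and Oas1b was the only member with an unadjusted p under 0.05 (0.86, SE 0.34, adjusted p = 0.131 in edgeR). It was called when TG UVB replicate 12 was left out (1.04, adjusted p = 0.0123), which also raised the called genes from 1393 to 3790, while leaving out WT UVB replicate 8 lowered them to 373. Averaged over treatments, genotype gave no called member and 0.00618% of tested genes, with no member at an unadjusted p under 0.05, and DESeq2 called 9 genes and no member.

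For Abce1 and Pde12 the log2 differences in nodes lay between 0.0019 and 0.075 in both UVB and both genotype comparisons, and neither gene was called. The 10 interferon-stimulated reference genes had medians of -1.58 for UVB in WT, 1.91 for UVB in TG, -2.24 for TG against WT without UVB and 3.62 for the interaction, with none called. The 8 double-stranded RNA sensors had medians of -0.59, 0.91, -1.12 and 1.57 in the same order, again with none called. Among ligands only Ifng could be tested, and it was higher after UVB in WT nodes (1.51, adjusted p = 0.0343, edgeR) with 44 to 55 counts against 11 to 28. This call was lost without WT NoTx replicate 2 or 3 or WT UVB replicate 8 or 9, with adjusted p of 0.0847 to 0.158 in edgeR.

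The 12 node libraries span both genotypes with and without UVB, so correlations over them also include differences between groups. The correlation of a member with the mean of the others was 0.97 for Oas2, 0.92 for Oas3 and 0.85 for Oasl1. It was 0.81 for Oasl2, 0.69 for Oas1a, 0.53 for Oas1c and 0.29 for Oas1b. The non-member genes most like the members were Irf7, the regulator of type I interferon genes, and Mx2 (0.98 each), followed by Slfn8, Gm6545 and Herc6 (0.98, 0.97 and 0.97).

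The order of the levels differed between skin and nodes, which were deposited in separate tables, so that levels are set side by side and not tested. Per kilobase of exon, Oas1a led in WT skin with 6.66 CPM per kb, followed by Oasl2 (3.83) and Oasl1 (3.51), which overlapped each other. Oas1c (1.45), Oas1g (1.29), Oas3 (0.896), Oas2 (0.712) and Oas1b (0.437) followed, each overlapping the next. In untreated WT nodes the order was Oasl1 (9.93), Oas3 (9.37), Oas1a (6.62), Oas1c (6.26), Oas1b (4.85), Oas2 (3.38), Oasl2 (0.651) and Oas1g (0.0930), and neighbours overlapped down to Oas2, which lay above Oasl2 without overlap. Oas1c led in TG NoTx nodes (4.94), Oas1b in WT UVB nodes (7.60) and Oas1a in TG UVB nodes (11.4), and only the first of these lay clear of the next gene. Oas1a also led in NL skin (5.11) and in L skin (21.7), where Oasl2 (8.13) and Oas1g (7.07) followed with overlapping ranges.

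Shares within a pair of genes do not depend on library scaling. Oas1g made up 16.5% to 30.9% of the Oas1a and Oas1g counts in the 9 skin libraries and 0% to 2.09% in the 12 node libraries. Within skin the share was 30.9%, 29.9%, 28.6% and 21.1% in L replicates 4 to 7, against 16.5% to 23.8% in WT and 16.8% and 21.3% in NL. L replicate 7 alone lay within the range of the other skin libraries. In TG NoTx node replicate 4 the count of Oas1g was 0 of 263, with an exact 95% binomial interval up to 1.39%. Oasl2 made up 59.9% to 94.1% of the Oasl1 and Oasl2 counts in skin and 4.18% to 19.0% in nodes. Oas1f had 1653 to 6739 counts in every skin library and 0 in all 12 node libraries. These intervals cover counting error only, and the split between Oas1a and Oas1g rests on how reads common to both were assigned.

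**Figure D5:**
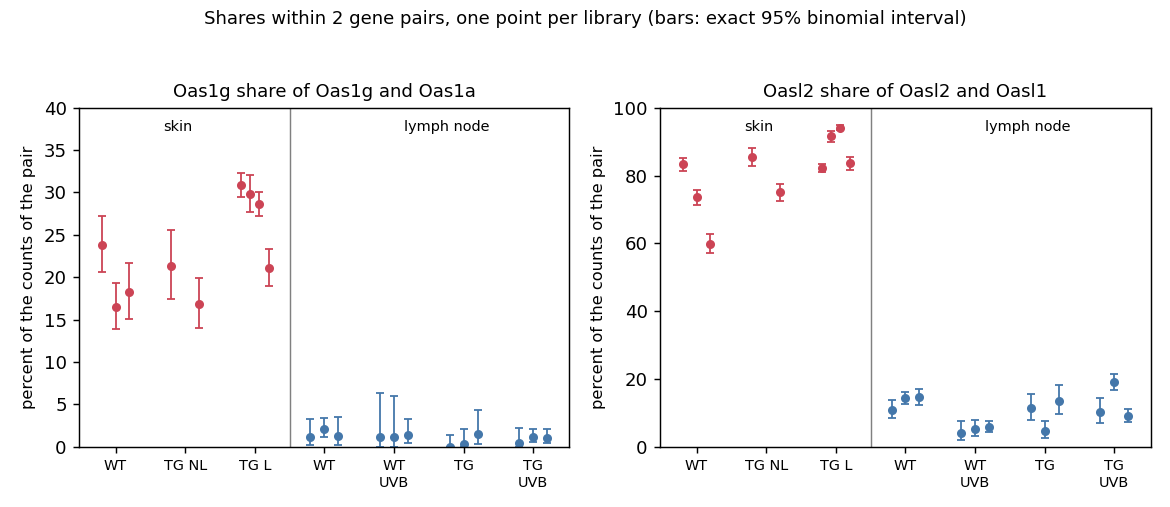
Percent of the pair's counts (vertical axes) taken by Oas1g of Oas1g and Oas1a (left, axis to 40%) and by Oasl2 of Oasl2 and Oasl1 (right); each point is a library in 1 of 7 groups and bars are exact 95% binomial intervals. Skin and node libraries do not overlap in either share.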

How the data were processed

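RNA was measured by poly-A RNA-seq of 9 skin and 12 lymph node libraries with 151-base paired reads. Node cells had been passed through a 70 µm strainer. The authors trimmed reads, aligned them to GRCm38 with STAR 2.7.8a and deposited expected counts per gene from RSEM 1.3.3, with cutadapt 4.8, FastQC 0.11.8 and MultiQC 1.20 named in the processing notes. RSEM divides reads that fit several genes, which touches Oas1a and Oas1g. The expected counts were rounded to whole numbers before the fits.

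Each tissue was fitted in a single model by group in edgeR 4.0.16 (R 4.3.3) with filterByExpr (minimum count 10), TMM scaling, robust quasi-likelihood tests and Benjamini-Hochberg adjustment over all tested genes. A gene was called at an adjusted p under 0.05. CPM used TMM library sizes, and levels per kb used union exon lengths of GENCODE M21. Log2 differences carry an SE computed from the difference and the F statistic of its quasi-likelihood test. The 95% interval is a t interval built on that SE. The same scripts were tested on simulated data.

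Alternatives were DESeq2 1.42.0, RLE scaling, other filters, Xist as a covariate because sex is not given, the compared groups alone, each library left out, and Oas1a and Oas1g summed. Named were all members, listed pathway genes that were called in L skin or have a described role, and the 5 most alike genes per tissue. Members and lists were chosen with earlier results of these data known. Promoters came from RefSeq GRCm38.p6, with a motif search by exact match. Intervals and limits of counts cover counting error only. Some listed pathway genes are not reported here. No deposited column was left out.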

Additional observations from a re-analysis of the deposited data

Results flagged for a closer look

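The UVB difference was negative in WT nodes and positive in TG nodes for every tested member except Oas1b, which was positive in both. Of these Oas1a, Oas3, Oasl1 and Oasl2 met a further rule on single libraries. How many of all tested genes meet that rule was not counted. For each of these 4 genes every WT node library after UVB lay below the mean of the untreated WT nodes, and every TG node library after UVB lay above the mean of the untreated TG nodes. TG UVB replicate 10 nevertheless lay within the untreated TG range for Oas1a (7.12 CPM against 5.71 to 7.55). The same held for Oasl1 (7.39 CPM against 6.43 to 8.14) and Oasl2 (0.843 CPM against 0.397 to 1.01). The untreated WT mean was raised by replicate 2. WT UVB replicate 9 lay above both other untreated WT libraries for Oas1a (10.5 CPM against 8.03 and 7.37) and for Oasl1 (24.4 CPM against 14.5 and 23.3). Without WT NoTx replicate 2 the UVB difference in WT nodes was -0.49 for Oas1a and -0.34 for Oasl1 on the log2 scale, against -1.19 and -0.79 with it. The interaction was 2.85 for Oas1a, 3.10 for Oas3, 2.43 for Oasl1 and 4.57 for Oasl2 on the log2 scale, and its adjusted p was 0.848 for each in edgeR, so the difference between genotypes did not pass the test. The members were chosen with these data known, and high and low libraries were largely shared by the 4 genes, so they are not separate cases. Among the 8 members in the 4 lesional skin libraries, no library stood far enough from the others to be singled out.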

How the results depend on the processing

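Of 994 member values under an alternative, 962 kept the direction of the reported fit, and of 25 counts of called members in the L comparisons, where members were called, 6 moved by over 1.5 times. The other 110 counts belong to comparisons with no called member and rose above 0 once. L versus NL skin gave 5 called members with DESeq2, 5 with Xist as a covariate and 1 with the compared groups alone, against 3, and 0 to 4 when a library was left out, with 0 without NL replicate 2 or NL replicate 3. L versus WT skin gave 1 to 4, the lowest without WT replicate 8, and UVB averaged over genotypes 0 to 1. Over all genes, UVB in WT nodes gave 805 calls, 1972 with DESeq2, 2431 with the compared groups alone, 170 with Xist and 0 to 493 when a library was left out. L versus NL skin gave 4782, 3156 for the groups alone and 1182 to 5187 when a library was left out. UVB averaged over genotypes gave 1393, 2406 with DESeq2 and 373 to 3790 when a library was left out, and UVB in TG nodes gave 0, or 236 without TG UVB replicate 12.

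None of the 32 values that changed direction came from a comparison in which that gene was called. Some belonged to Oas1a and Oas2, which were called in the L comparisons. The cause of the changes was not tested. With Xist, Oas1c in UVB of TG nodes became -0.10, Oas2 in TG versus WT after UVB -0.43 and Oasl2 in averaged UVB -0.21. The lowest and highest values with a library left out were -1.06 and 0.063 for Oas1a (-0.39 with all libraries) and -0.69 and 0.74 for Oas1b (0.23) in NL versus WT. In L versus NL they were -0.41 and 0.23 for Oas1c (-0.13) and -0.20 and 1.80 for Oasl1 (0.48). In TG versus WT after UVB they were -0.68 and 0.16 for Oas1b (-0.24), -0.22 and 0.15 for Oas1c (-0.065) and -0.54 and 1.89 for Oas2 (0.78). They were -0.12 and 0.25 for Oas1c in UVB of TG nodes (0.053), -1.69 and 0.39 for Oas2 in UVB of WT nodes (-0.57) and -0.18 and 0.82 for Oas1b in the interaction (0.41). In averaged UVB they were -0.24 and 0.58 for Oas1a (0.23) and -0.55 and 0.28 for Oasl2 (0.013), and in averaged genotype -0.68 and 0.23 for Oasl2 (-0.13). Where an arm kept 1 library, that library was assumed to vary like the other groups. No paired analysis was possible because within a tissue every library has a replicate number of its own, and the numbers that skin and nodes share belong to groups that were never compared.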
